A study of Mus musculus with 6 samples.

Results

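The transcripts of 10 nuclear genes of mitochondrial upkeep were followed in primary brite adipocytes after knockdown (KD) of the long noncoding RNA *Ctcflos*. They were *Tfam*, *Tfb2m* and *Polg* for mitochondrial DNA, *Nrf1* and *Gabpa* for its nuclear control, *Mfn1*, *Mfn2* and *Opa1* for fusion, *Dnm1l* for fission and *Pink1* for mitophagy. They were chosen by symbol from the deposited table, in which these 10 of 52089 symbols take up 124 of 168021 transcript accessions. In *Ctcflos* KD, *Tfam* transcripts rose to 139.8% of the control level, *Polg* fell to 66.0% and *Gabpa* fell to 51.9%, while the other 7 genes, among them the 5 for fusion, fission and mitophagy, did not pass the test. Of 14 alternative analyses, *Gabpa* kept its call in 14, whereas *Tfam* lost it in 8 and *Polg* in 9.

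The cells came from the stromal-vascular fraction of the inguinal fat of 129SvEv mice and had 2 days of induction and 1 day of differentiation, with rosiglitazone, a PPARγ agonist, as the browning agent in KD and control cells alike. They were reverse transfected with 50 nM of an LNA gapmer, an antisense oligonucleotide that directs RNase H to its target, either against *Ctcflos* or nontargeting, and total RNA was harvested 24 h later. The table holds 3 *Ctcflos* KD and 3 nontargeting control libraries. No source says whether the libraries of a group came from separate mice or cultures, so that p-values measure only the spread between these libraries, which may be technical.

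The authors deposited RPKM, reads per kilobase of transcript and per mio mapped reads, for every accession. A gene value is the mean RPKM over the accessions of its symbol. Low RPKM values came in steps of a single read, and the step size gave depths of 60.8 to 79.2 mio reads, with at least 95.2% of the low values within 0.05 reads of a whole number. Differences were tested with limma-trend on log2(RPKM + 1) in 11701 genes whose mean RPKM reached 1 and called at an adjusted p under 0.05 (Benjamini-Hochberg over these genes). Fold changes on this scale understate the change of weakly expressed genes. *Ctcflos* itself was at 0.0969, 0.0705 and 0.210 RPKM in KD libraries 1 to 3 and at 0.748, 0.751 and 0.840 RPKM in the controls, or 16.1% of control. KD library 3 held the most *Ctcflos* of the KD libraries and was also the shallowest of them.

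The adipocyte markers were present in all 6 libraries, with a summed level of 4398 to 5864 RPKM in *Ctcflos* KD and 6053 to 6706 RPKM in controls over 7 markers, of which 1 (*Cebpa*) passed the test, lower in KD. The 6 brite markers summed to 61.9 to 81.6 RPKM in KD and 108.6 to 166.2 RPKM in controls, and *Ucp1*, *Elovl3* and *Ppargc1a* were called lower. The 6 progenitor markers summed to 31.2 to 34.9 RPKM in KD and 38.2 to 42.7 RPKM in controls. The difference of this sum came from *Pdgfra*, which was called lower (13.1 against 21.8 RPKM), while *Pdgfrb* at 115.4%, *Cd34* at 124.2% and *Thy1* at 94.9% of control were not called, and the median log2 fold change of the 4 tested markers was 0.054. The 4 skeletal muscle markers summed to 1.28 to 2.85 RPKM in KD and 1.92 to 4.78 RPKM in controls, nearly all of it from *Acta1*, which was not called, while *Myod1* was listed at 0 in every library. The 4 endothelial and the 4 epithelial markers had means under 1 RPKM, and the leukocyte marker *Ptprc* did not pass 0.0486 RPKM in any. The 5 leukocyte markers summed to 6.64 to 16.2 RPKM in KD and 8.12 to 27.6 RPKM in controls, and *Cd68* was called higher. KD library 3 (16.2 RPKM) and control library 2 (27.6 RPKM) held the highest leukocyte sums, and the other libraries lay between 6.64 and 8.43 RPKM. Muscle sums were also highest in KD library 3 (2.85 RPKM) and control library 2 (4.78 RPKM), against 1.28 to 2.30 RPKM in the others. The part of these differences between libraries in the results was not tested. Adipocyte and brite sums and *Pdgfra* thus moved with the KD beside the results given here, and their part in these was not tested. In bulk RNA, fewer cells of a type and less RNA per cell cannot be told apart.

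Mitochondria carry a small circular genome that is replicated by the polymerase *Polg* encodes and packaged and transcribed with the help of TFAM and TFB2M. All these proteins come from nuclear genes, which are classically under the control of nuclear respiratory factor 1 (*Nrf1*) and of GA-binding protein, whose DNA-binding subunit is *Gabpa*, together with PGC-1 coactivators. The mitochondrial network is joined by mitofusins at the outer membrane (*Mfn1*, *Mfn2*) and OPA1 at the inner membrane, and is cut by DRP1 (*Dnm1l*). PINK1 marks damaged mitochondria for mitophagy. Thermogenic adipocytes are rich in mitochondria, which carry the uncoupling protein UCP1.

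Because *Nrf1* and *Gabpa* encode transcription factors that are known to act at promoters of such genes, the promoters of the 10 genes were searched for a core of either motif, GCATGCGC for NRF1 and CCGGAAGT for GABP. RefSeq promoters of GRCm38.p6, from 250 bases before to 50 bases after a start, were found for 10 of 10 genes (14 promoters). The GABP letters occurred in the promoters of *Tfam*, *Polg* and *Mfn1*, and the NRF1 letters in those of *Tfb2m* and *Opa1*. Both strands were searched, and no match of one motif overlapped a match of the other, while in *Opa1* the NRF1 matches on the 2 strands overlap. Among all 32851 promoters of this length, 3.89% held the GABP and 2.71% the NRF1 letters, and among promoters of the genes tested these shares were 9.11% and 5.57%. The 5 promoters with a match are shown 5′ to 3′, with the match in capitals.
*Tfam* promoter, chr10:71237995-71238294, minus strand: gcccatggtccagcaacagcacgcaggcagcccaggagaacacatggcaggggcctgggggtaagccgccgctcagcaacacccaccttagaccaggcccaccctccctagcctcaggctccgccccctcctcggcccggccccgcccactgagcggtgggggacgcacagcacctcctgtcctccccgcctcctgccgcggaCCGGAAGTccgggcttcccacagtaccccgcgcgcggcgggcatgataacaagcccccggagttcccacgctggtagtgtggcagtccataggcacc
*Polg* promoter, chr7:79466224-79466523, minus strand: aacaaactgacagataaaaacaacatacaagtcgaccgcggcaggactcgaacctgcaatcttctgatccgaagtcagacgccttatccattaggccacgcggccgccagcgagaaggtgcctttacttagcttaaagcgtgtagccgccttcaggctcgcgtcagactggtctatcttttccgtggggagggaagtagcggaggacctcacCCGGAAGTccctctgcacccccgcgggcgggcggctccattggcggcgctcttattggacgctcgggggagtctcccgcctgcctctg
*Mfn1* promoter, chr3:32529232-32529531, plus strand: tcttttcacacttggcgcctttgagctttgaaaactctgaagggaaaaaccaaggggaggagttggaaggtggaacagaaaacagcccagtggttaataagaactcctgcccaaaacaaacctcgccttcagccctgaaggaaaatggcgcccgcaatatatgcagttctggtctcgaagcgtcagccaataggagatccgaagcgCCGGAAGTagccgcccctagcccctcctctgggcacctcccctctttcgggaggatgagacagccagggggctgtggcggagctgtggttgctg
*Tfb2m* promoter, chr1:179546227-179546526, minus strand: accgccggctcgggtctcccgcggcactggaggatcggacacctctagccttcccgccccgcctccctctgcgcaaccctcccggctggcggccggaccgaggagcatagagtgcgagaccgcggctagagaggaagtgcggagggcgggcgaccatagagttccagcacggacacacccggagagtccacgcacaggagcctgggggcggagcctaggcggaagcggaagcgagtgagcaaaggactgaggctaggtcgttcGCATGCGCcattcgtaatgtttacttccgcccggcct
*Opa1* promoter, chr16:29579084-29579383, plus strand: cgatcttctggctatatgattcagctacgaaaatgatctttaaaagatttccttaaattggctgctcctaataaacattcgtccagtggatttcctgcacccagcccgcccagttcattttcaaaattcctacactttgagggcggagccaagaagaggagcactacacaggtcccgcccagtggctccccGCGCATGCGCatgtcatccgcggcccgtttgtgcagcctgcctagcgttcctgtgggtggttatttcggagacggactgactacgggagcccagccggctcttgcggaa
The GABP match began 47, 38 and 44 bases before the start in *Tfam*, *Polg* and *Mfn1*, on the strand of the gene. Of these genes, *Tfam* was called higher, *Polg* was called lower and *Mfn1* was not called in *Ctcflos* KD. A match is a description of these letters and not a binding site.

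Of the 3 genes for mitochondrial DNA, *Tfam* rose, *Polg* fell and *Tfb2m* was not called. *Tfam* (chr10:71225464-71238280 of GRCm38, minus strand) encodes the packaging protein and transcription factor of mitochondrial DNA. It was at 8.89, 9.69 and 7.69 RPKM in *Ctcflos* KD and at 6.36, 5.91 and 6.53 RPKM in controls. Every KD library was above every control, and KD library 3 was the nearest to the controls. The mean was 8.76 ± 1.01 RPKM (SD, n = 3) against 6.27 ± 0.319 RPKM (SD, n = 3), a log2 fold change of 0.42 (standard error 0.112, limma adjusted p = 0.031). On its longest coding transcript of 4167 bases and 7 exons, 2207, 2434 and 1638 reads were recovered in KD and 1744, 1565 and 1394 in controls.

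*Polg* (chr7:79446231-79466362, minus strand) encodes the catalytic subunit of the mitochondrial DNA polymerase. It was at 2.10, 1.52 and 2.53 RPKM in *Ctcflos* KD and at 2.93, 3.29 and 3.09 RPKM in controls. Every KD library was below every control, with KD library 2 the lowest. The mean was 2.05 ± 0.509 RPKM (SD, n = 3) against 3.11 ± 0.182 RPKM (SD, n = 3), with a log2 fold change of -0.44 (standard error 0.131, limma adjusted p = 0.045). The 3' end of *Polg* overlaps *Fanci* on the opposite strand, and no source says that reads were assigned by strand, so that reads of the 2 genes in the overlap cannot be told apart.

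*Tfb2m* (chr1:179528055-179546267, minus strand), a transcription factor of the mitochondrial RNA polymerase, was at 1.72, 1.64 and 1.90 RPKM in KD and at 1.75, 1.83 and 1.77 RPKM in controls. The groups overlapped, and the log2 fold change of -0.015 had a 95% interval from -0.21 to 0.18 (limma adjusted p = 0.91).

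Of the 2 nuclear transcription factors, *Gabpa* fell and *Nrf1* was not called. *Gabpa* (chr16:84834925-84863779, plus strand) was at 5.24, 5.50 and 6.91 RPKM in *Ctcflos* KD and at 12.0, 10.2 and 11.8 RPKM in controls. The highest KD library lay well under the lowest control. The mean was 5.88 ± 0.896 RPKM (SD, n = 3) against 11.3 ± 0.969 RPKM (SD, n = 3), and the log2 fold change was -0.85 (standard error 0.126, limma adjusted p = 0.0069). *Atp5j*, a subunit of ATP synthase, starts 700 bases away on the opposite strand and overlaps *Gabpa*. As with *Polg* and *Fanci*, reads of *Gabpa* and *Atp5j* in the overlap cannot be told apart. *Atp5j* was at 19.4 RPKM in KD and 17.1 RPKM in controls and was not called (log2 fold change 0.18, limma adjusted p = 0.25).

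*Nrf1* (chr6:30047988-30153458, plus strand) was at 1.55, 1.74 and 1.76 RPKM in KD and at 1.91, 1.90 and 2.04 RPKM in controls. Every KD library was below every control, but at 86.4% of control the gene was not called (log2 fold change -0.14, standard error 0.0859, limma adjusted p = 0.27). It is the longest of the members with a span of 105.5 kb. Of 921 tested genes that span at least 100 kb in Gencode vM21, 45.1% were called lower, compared with 7.3% of 5904 genes under 30 kb, the class of *Tfam*, *Tfb2m*, *Polg*, *Gabpa* and *Pink1*. Spans were found for 80.5% of the genes tested, and the part of span in the values of *Nrf1* was not tested.

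**Figure D1:**
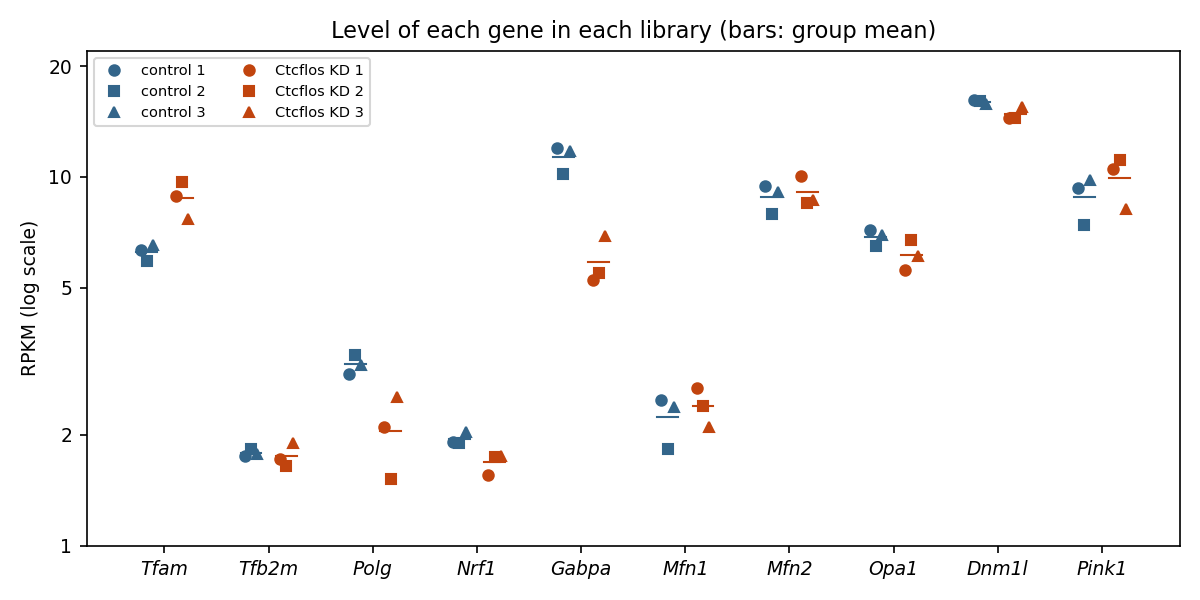
RPKM of the 10 genes in each library on a log axis, with the controls in blue, *Ctcflos* KD in red, marker shapes for the replicate number and short bars for group means. *Tfam* points of KD lie above the controls, those of *Polg*, *Gabpa*, *Nrf1* and *Dnm1l* lie below, and the other 5 genes overlap.

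None of the 3 fusion genes passed the test. *Mfn1* (chr3:32529465-32579239, plus strand) was at 2.67, 2.40 and 2.10 RPKM in *Ctcflos* KD and at 2.49, 1.82 and 2.37 RPKM in controls. The groups overlapped, and the log2 fold change was 0.073 with a 95% interval from -0.19 to 0.34 (limma adjusted p = 0.67). Its paralog *Mfn2* (chr4:147873599-147904704, minus strand), which also tethers mitochondria to the endoplasmic reticulum, was at 10.1, 8.53 and 8.64 RPKM in KD and at 9.43, 7.94 and 9.08 RPKM in controls. These groups overlapped as well, with a log2 fold change of 0.039 and a 95% interval from -0.22 to 0.30 (limma adjusted p = 0.82). The sign of both mitofusin differences depended on single libraries: without control library 2, the lowest control for both genes, they were -0.020 and -0.027, and without KD library 1 that of *Mfn2* was -0.031.

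*Opa1* (chr16:29579334-29654884, plus strand) was at 5.60, 6.74 and 6.10 RPKM in KD and at 7.18, 6.49 and 6.96 RPKM in controls. KD library 2 reached into the range of the controls, and the log2 fold change of -0.14 had a 95% interval from -0.38 to 0.095 (limma adjusted p = 0.34). On its 2 curated RefSeq mRNAs the groups did not overlap, at 7.17, 7.76 and 7.81 RPKM in KD against 10.2, 8.08 and 9.34 RPKM in controls. The fit on curated RefSeq mRNAs alone did not call *Opa1* either (log2 fold change -0.25, limma adjusted p = 0.12). By gene values over all accessions, the groups did not overlap in 44.8% of all genes.

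*Dnm1l* (chr16:16312230-16358959, minus strand), the fission GTPase, was at 14.4, 14.4 and 15.5 RPKM in KD and at 16.2, 16.1 and 15.7 RPKM in controls. Every KD library was below every control, but the difference was small, at 92.4% of control, and was not called (log2 fold change -0.11, 95% interval -0.34 to 0.12, limma adjusted p = 0.45). *Pink1* (chr4:138313409-138326307, minus strand), the mitophagy kinase, was at 10.5, 11.2 and 8.21 RPKM in KD and at 9.34, 7.42 and 9.79 RPKM in controls. The groups overlapped, with the widest interval of the 10 genes around a log2 fold change of 0.15 (95% interval -0.19 to 0.49, limma adjusted p = 0.48).

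**Figure D2:**
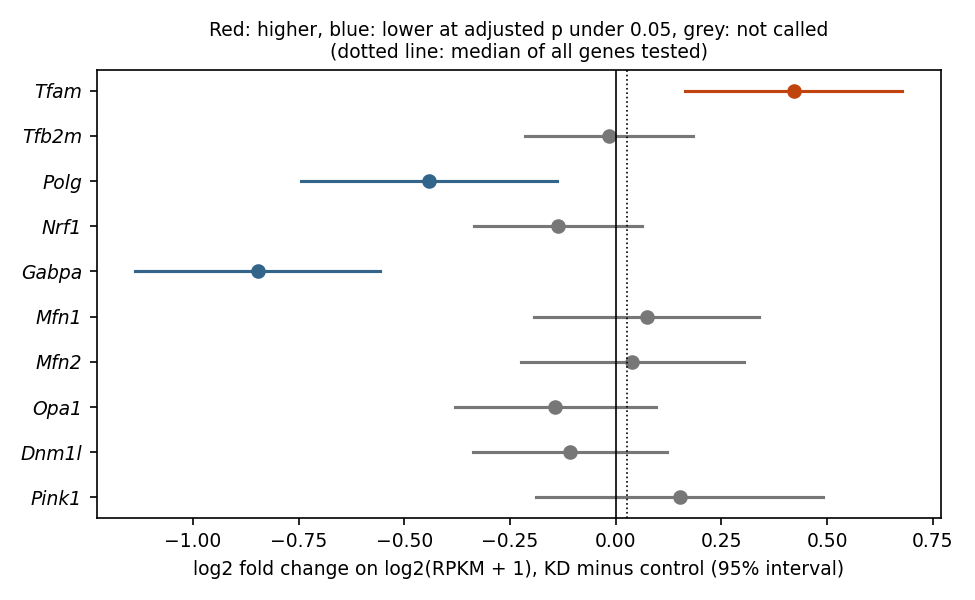
Log2 fold change of *Ctcflos* KD minus control on the log2(RPKM + 1) scale for each gene, with its 95% interval from limma. The intervals of *Tfam* (red), *Polg* and *Gabpa* (blue) leave out 0, those of the 7 genes in grey include it, and the dotted line is the median of all genes tested, 0.028.

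In sum over the 10 genes, 1 was called higher and 2 lower. Of all 11701 genes tested, 24.0% were called, 11.5% higher and 12.4% lower. The groups did not overlap in 5 of the 10 genes and in 44.8% of all genes. The median log2 fold change was -0.061 over the 10 genes and 0.028 over all genes tested. The 3 calls among 10 genes were close to this background. For each of the 5 genes without overlap the exact two-sided permutation test of 3 against 3 libraries gave its smallest possible p of 0.1.

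The 3 calls were not equally firm. *Gabpa* was called in 14 of 14 alternative analyses, with an adjusted p from limma of 0.0008 to 0.048 when each library was left out in turn. *Tfam* was not called in 8 and *Polg* was not called in 9 of the 14. With all genes and no filter on low values their adjusted p from limma was 0.065 and 0.11, and without an intensity trend in limma that of *Polg* was 0.0502. Neither passed an adjusted p of 0.01. Leaving out KD library 3 gave 0.0061 and 0.0074, whereas leaving out KD library 1 gave 0.083 and 0.089, and KD library 2 gave 0.092 and 0.11. Among the KD libraries, library 3 held the most residual *Ctcflos*, was the shallowest and had the highest leukocyte and muscle sums. The part of these traits in the adjusted p was not tested. Without control library 1, 2 or 3 the adjusted p was 0.11, 0.091 and 0.10 for *Tfam* and 0.11, 0.12 and 0.13 for *Polg*. The direction of the 3 genes was the same in every alternative.

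**Figure D3:**
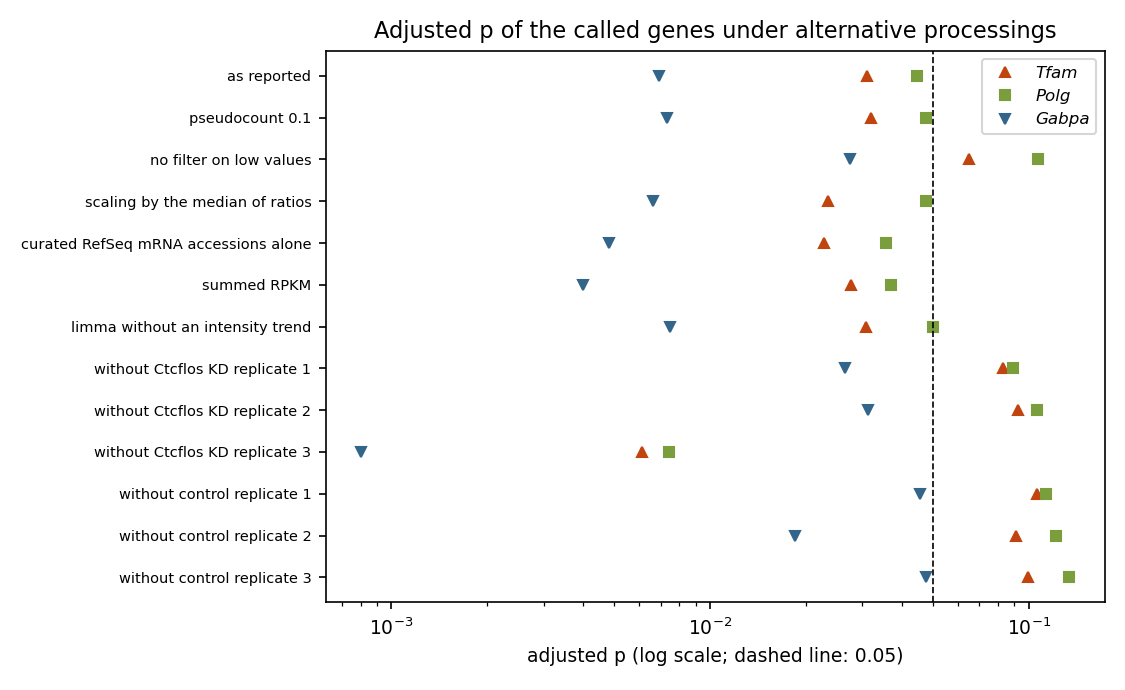
Adjusted p from limma (log axis) of *Tfam*, *Polg* and *Gabpa* as reported and under 12 alternative processings, with a dashed line at 0.05. *Gabpa* stays to the left of the line throughout, while *Tfam* and *Polg* pass to its right without a filter and when any library but KD replicate 3 is left out, and *Polg* lies just past it at 0.0502 in limma without a trend.

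RPKM is scaled to transcript length, so that levels of different genes can be set side by side. On curated RefSeq mRNAs, the order of the level in controls was *Dnm1l* (15.9 RPKM), *Mfn2* (12.2 RPKM), *Gabpa* (12.1 RPKM), *Opa1* (9.22 RPKM), *Pink1* (8.66 RPKM), *Tfam* (5.44 RPKM), *Polg* (4.21 RPKM), *Tfb2m* (2.77 RPKM), *Mfn1* (2.40 RPKM) and *Nrf1* (1.80 RPKM). The ranges of the control libraries overlapped between *Mfn2* and *Gabpa* and between *Opa1* and *Pink1*, and not between other neighbours in this order. The curated mRNAs of a gene were averaged, and the order depends on this choice. A curated mRNA of *Nrf1* taken alone (2.37, 2.43 and 2.53 RPKM in controls) lay within the control range of *Mfn1*. By gene values over all accessions, the control order was instead *Dnm1l*, *Gabpa*, *Pink1*, *Mfn2*, *Opa1*, *Tfam*, *Polg*, *Mfn1*, *Nrf1* and *Tfb2m*. On the curated mRNAs, the means in *Ctcflos* KD were 6.13 RPKM for *Gabpa* and 7.51 RPKM for *Tfam*. *Gabpa* stood above *Tfam* in every control library and below it in KD libraries 1 and 2, but in KD library 3 it was still above, at 7.38 against 6.87 RPKM. The KD means of *Polg* and *Tfb2m* were both 2.75 RPKM, with *Polg* between 1.99 and 3.43 RPKM and *Tfb2m* between 2.46 and 2.96 RPKM.

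By the gene values over all accessions and within each library, *Mfn1* was at 0.263 ± 0.0189 (SD, n = 3) of the *Mfn2* level in *Ctcflos* KD and at 0.252 ± 0.0189 (SD, n = 3) in controls. *Opa1* was at 0.416 ± 0.0448 (SD, n = 3) of the *Dnm1l* level in KD and at 0.430 ± 0.0223 (SD, n = 3) in controls. Neither ratio differed beyond its spread (exact two-sided permutation tests of the log2 ratios, p = 0.5 and 0.8, both 0.8 after Benjamini-Hochberg adjustment over the 2 ratios). On curated RefSeq mRNAs, *Mfn1* was at 0.195 of *Mfn2* in KD and 0.196 in controls. *Opa1* was at 0.519 of *Dnm1l* in KD and 0.580 in controls on these mRNAs (the same permutation tests, p = 0.9 and 0.3).

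These libraries were sequenced deeply to study splicing. The table holds no junctions, and the relative use of accessions within a gene was compared instead. For *Tfam*, 7 of 7 accessions were higher in every KD library than in any control, at 137.3 to 146.5% of control. For *Gabpa*, 11 of 11 accessions were lower without overlap, at 49.2 to 56.8%. For *Polg*, 14 of 18 accessions were lower without overlap, and all 18 had a lower mean, at 55.0 to 82.1%. Of all 67403 accessions with a mean RPKM of at least 1, 21.6% were higher and 23.6% lower in KD without overlap, and this mean was reached by 7, 11 and 16 of the accessions of these 3 genes. Overlapping accessions share reads, so that these counts are not independent.

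The types of transcript within these genes moved the same way. The 5 protein-coding Ensembl transcripts of *Polg* were at 55.0 to 71.7% of control and its 5 retained-intron transcripts at 66.2 to 82.1%, while for *Gabpa* 1 retained-intron transcript was at 56.8% and 2 processed transcripts were at 49.2 and 51.4%. These ranges were not tested against each other.

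Among the genes without a call, all 10 *Dnm1l* accessions were at 91.9 to 93.8% of control and all 6 *Pink1* accessions at 109.2 to 113.8%. *Mfn1* varied more, from 96.0 to 144.6%, and 2 of its 11 accessions were higher in every KD library, beside the 21.6% of all accessions given before. One of them, the coding fragment ENSMUST00000147350 of 746 bases, was at 1.47, 1.52 and 1.10 RPKM in KD and at 1.07, 0.913 and 0.853 RPKM in controls.

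Changed usage was called by limma diffSplice in 0.758% of 10027 genes that had 2 or more accessions at a mean RPKM of 1, and in none of the 10 members. Their gene-level p ranged from 0.33 for *Mfn1* to 0.998 for *Dnm1l* before adjustment, and none had an unadjusted p under 0.05. The share of an accession in its gene moved by at most 1.28 percentage points between the group means, in *Mfn1*. *Nrf1* was called with no filter on low values (gene-level adjusted p = 0.037 from limma diffSplice), where 2 accessions under 1 RPKM enter. One of these, the GenBank clone AK036604, was at 0.868, 0.728 and 0.603 RPKM in KD and at 0.577, 0.596 and 0.531 RPKM in controls, above control while the gene as a whole was below.

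**Figure D4:**
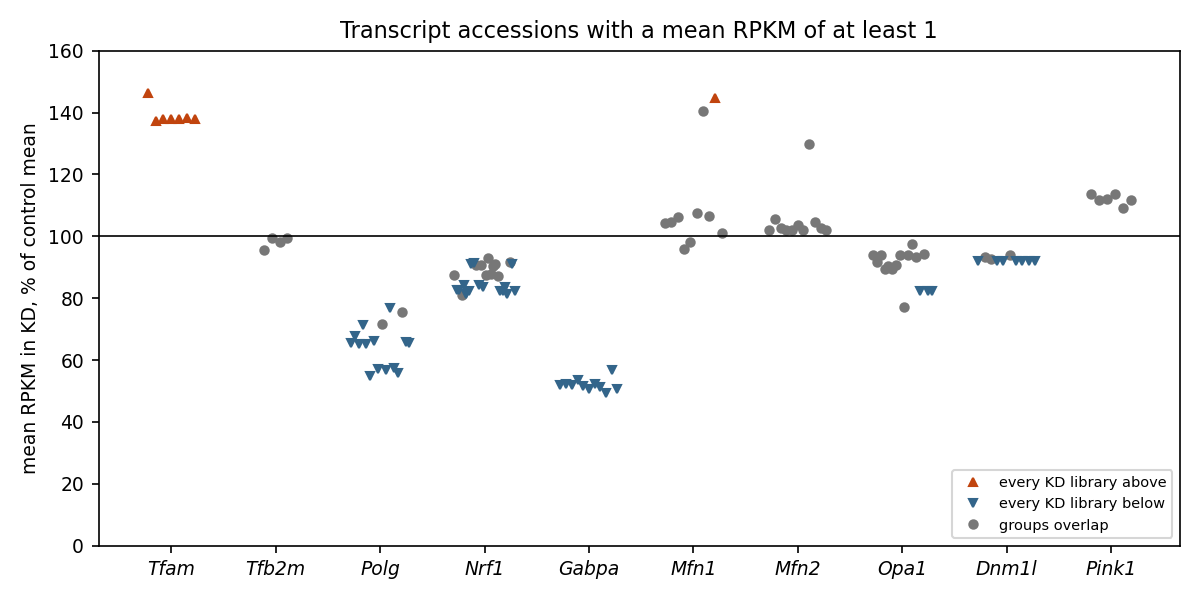
Mean RPKM in *Ctcflos* KD as a percentage of the control mean for each accession whose mean RPKM reached 1, with red upward triangles where every KD library is above every control, blue downward triangles where every KD library is below, and grey circles where the groups overlap. All accessions of *Tfam* lie above 137% and all of *Gabpa* below 57%, each as a tight group.

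The other genes of these pathways were taken from lists, whose counts stand beside 24.0% called, 11.5% higher and 12.4% lower, over all genes tested. These shares depended on the span of a gene. Of tested genes of at least 100 kb, 45.1% were called lower and 3.58% higher, against 7.3% and 15.0% of those under 30 kb. The lists were not compared within a span class, and the part of span in the values of their genes was not tested. Among 11 tested nuclear regulators of biogenesis, 4 were called higher and 3 lower (63.6% called), with a median log2 fold change of -0.021. *Gabpb1*, the partner subunit of *Gabpa* that carries the activation domain, rose from 0.955 ± 0.101 to 1.66 ± 0.383 RPKM (SD, n = 3), while *Gabpb2* was not called (2.88 against 2.94 RPKM). *Yy1*, a zinc finger factor, rose to 172.8% of control and the deacetylase *Sirt1* to 149%. *Pprc1*, a PGC-1-related coactivator outside the naming rule and added after its values were seen, was at 0.644 RPKM in controls and at 1.58 RPKM in KD. In controls *Gabpb1* and *Pprc1* lay under the minimum of 1 RPKM, so that these 2 of the 4 higher genes entered the test through their KD level alone, and *Gabpb1* was called in 6 and *Pprc1* in 5 of the 14 alternatives.

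The PGC-1 coactivators *Ppargc1a* and *Ppargc1b* fell. *Ppargc1a* had 1.73 ± 0.607 RPKM after the KD and 2.94 ± 0.531 RPKM with the control oligonucleotide (SD, n = 3 each), and *Ppargc1b* had 2.01 ± 0.578 RPKM and 3.32 ± 0.101 RPKM (limma adjusted p = 0.049 and 0.033). *Ppargc1a* was called in 4 and *Ppargc1b* in 8 of the 14 alternatives. The mitochondrial deacetylase *Sirt3* fell to 64.0% of control. *Esrra*, the nuclear receptor that PGC-1 coactivates, was at 68.2% of control with overlapping groups and missed the threshold (limma adjusted p = 0.060).

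Among 18 tested genes of mitochondrial DNA replication and transcription, 1 was higher and 2 were lower, with a median log2 fold change of 0.023. The 16.7% called lay under the 24.0% of all genes. *Lig3*, which ligates mitochondrial DNA, was at 4.17, 3.96 and 3.58 RPKM in KD and at 2.49, 2.85 and 2.76 RPKM in controls. *Atad3a*, a membrane ATPase tied to nucleoids, fell to 61.7% and *Lrpprc*, which stabilises mitochondrial mRNAs, to 57.2% of control. The RNA polymerase *Polrmt* (1.27 against 0.961 RPKM) and the helicase *Twnk* (4.34 against 3.21 RPKM, limma adjusted p = 0.12) were not called. *Polg2*, the accessory subunit of the polymerase, lay under the filter with 0.543 ± 0.0428 RPKM after the KD and 0.334 ± 0.0451 RPKM in the control libraries (SD, n = 3 each), the opposite direction to *Polg*, without a test across genes. It was named after its values were seen.

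**Figure D5:**
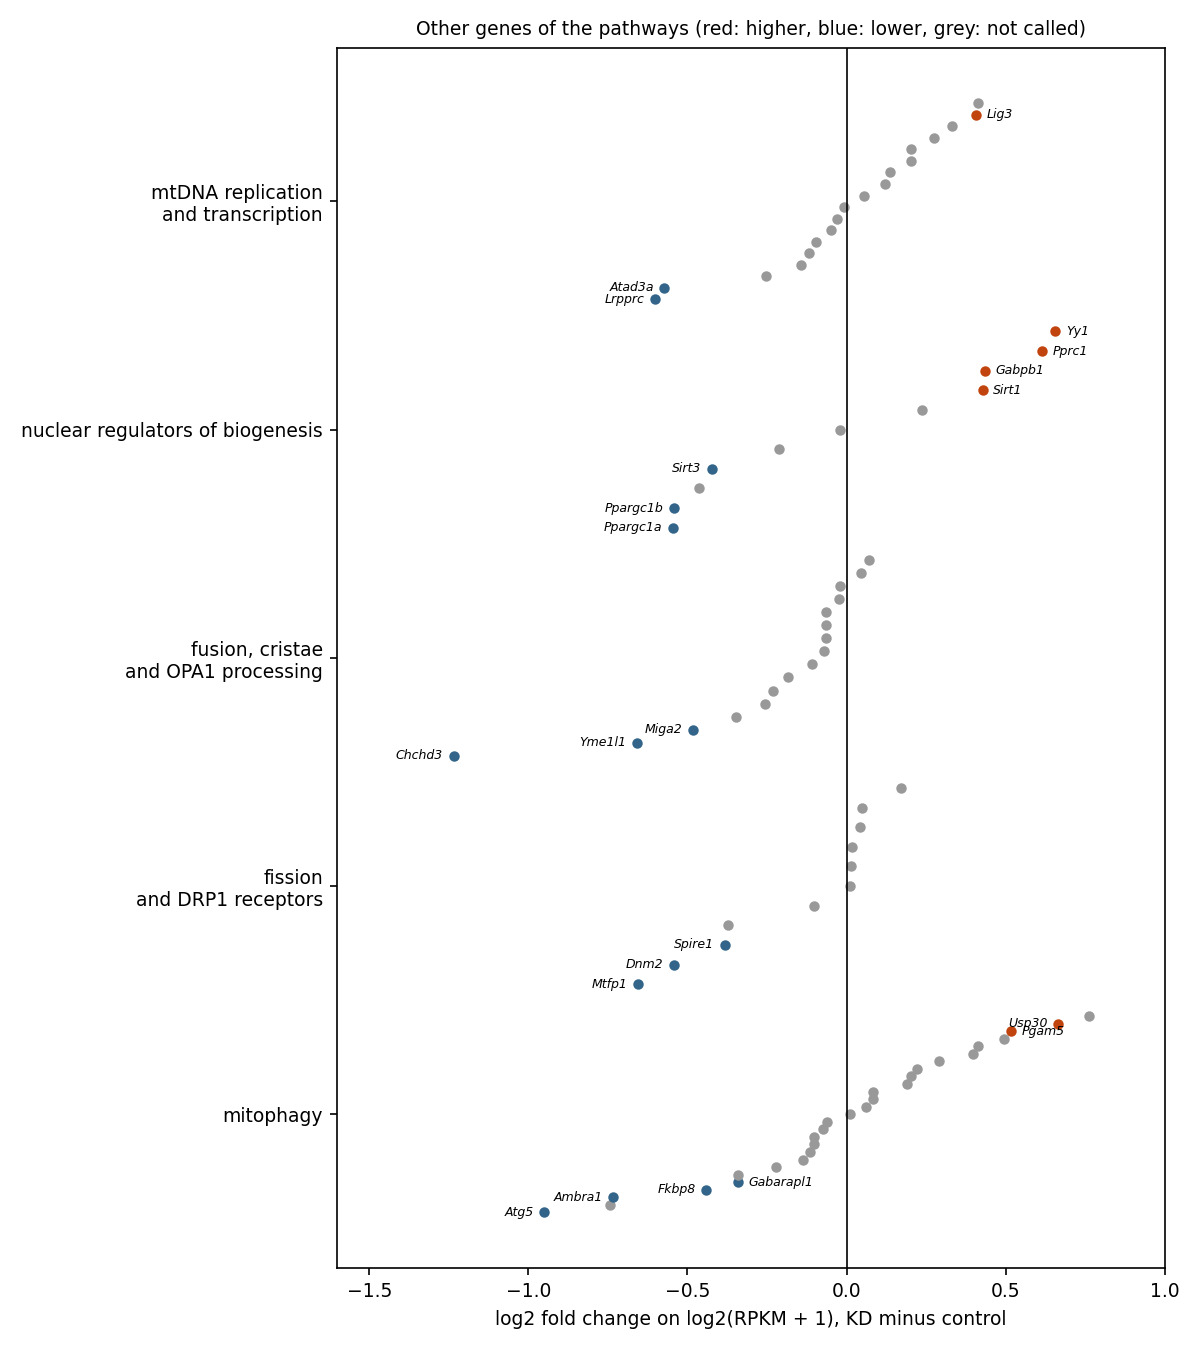
Log2 fold change of *Ctcflos* KD minus control for every tested gene of 5 lists, sorted within each list, with the called genes named. Higher genes (red) occur among the nuclear regulators, mitochondrial DNA genes and mitophagy genes, whereas the 3 called genes of the fusion list and the 3 of the fission list are lower (blue), with *Chchd3* farthest from 0.

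Among 16 tested genes of fusion, cristae and OPA1 processing, 3 were lower and 0 higher, or 18.8% called against 24.0% of all genes. *Chchd3*, a subunit of the MICOS complex at cristae junctions, was at 16.6, 20.9 and 30.2 RPKM in *Ctcflos* KD and at 55.8, 46.4 and 57.4 RPKM in controls. Its log2 fold change of -1.24 (standard error 0.209, limma adjusted p = 0.0091) was the largest on the log2(RPKM + 1) scale of the genes called in these lists, while by the ratio of mean RPKM *Ambra1* at 41.2% and *Pprc1* at 245.3% of control changed more than *Chchd3* at 42.5%. *Yme1l1*, one of the proteases that cut OPA1, was at 5.97, 6.46 and 9.60 RPKM in KD and at 13.7, 10.9 and 11.4 RPKM in controls.

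*Oma1*, the stress-activated protease of OPA1, was not called (1.92 against 2.05 RPKM). *Miga2*, an outer membrane protein that promotes fusion, fell to 67.3% of control. The median log2 fold change of the 16 genes was -0.091.

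Among 11 tested genes of fission, 3 were lower and 0 higher (27.3% called, close to the 24.0% of all genes), with a median log2 fold change of 0.011. *Dnm2*, a dynamin with its main role in endocytosis, fell to 62.1% of control (limma adjusted p = 0.011), the actin nucleator *Spire1* to 69.1% and the inner membrane protein *Mtfp1* to 57.3%. *Mff*, the main receptor of DRP1, was at 9.75, 10.6 and 12.4 RPKM in KD and at 15.6, 13.0 and 14.6 RPKM in controls. The groups did not overlap, but *Mff* missed the threshold (log2 fold change -0.37, limma adjusted p = 0.064). *Fis1*, another adaptor of the outer membrane, was at 18.2 ± 2.06 RPKM against 17.6 ± 1.20 RPKM (SD, n = 3).

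Among 27 tested genes of mitophagy, 2 were higher and 4 lower (22.2% called, close to the 24.0% of all genes), with a median log2 fold change of 0.0095. *Usp30*, a deubiquitinase of the outer membrane that opposes mitophagy, was at 5.37, 5.49 and 3.57 RPKM in KD and at 2.77, 2.37 and 2.72 RPKM in controls. The phosphatase *Pgam5* rose to 147.1% of control.

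*Ambra1* fell to 41.2%, *Atg5* to 46.6% and the receptor *Fkbp8* to 71.8% of control, and *Gabarapl1*, which is outside the naming rule and was added after its values were seen, fell to 77.4%. *Ambra1*, at 0.849 RPKM in KD and 2.06 RPKM in controls, reached the minimum of 1 RPKM through the controls alone. Of these genes, *Ambra1* and *Atg5* also serve general autophagy. The receptor *Bnip3* varied widely, from 72.7 to 138.1 RPKM in KD and from 98.0 to 241.5 RPKM in controls, and was not called.

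Of the 22 genes called in the 5 lists, 22 remained called without KD library 3, 8 without control library 2, 6 without KD library 2, 5 without KD library 1 and 1 each without control library 1 and control library 3. Without a filter on low values 5 remained, and at an adjusted p under 0.01 there were 2. *Ambra1* was called in each of these fits. *Usp30*, *Pgam5*, *Atad3a* and *Lrpprc* were among the genes lost in 4 or more of the fits with a library left out.

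Mitochondrially encoded transcripts were looked at by their Ensembl identity, since symbols such as COX3 and ND4L hold transcripts of neighbouring mitochondrial genes. Of 11 such transcripts, 6 were above 100 RPKM and stood at 82.2 to 98.4% of control, with 2 of them lower without overlap. By comparison, 23.6% of all accessions with a mean RPKM of at least 1 were lower in KD without overlap. mt-Co1, a subunit of cytochrome c oxidase, was at 4834, 5772 and 6252 RPKM in KD and at 6334, 6862 and 6470 RPKM in controls. mt-Nd5, a subunit of complex I, was at 361.8, 364.6 and 362.4 RPKM in KD and at 405.6, 401.1 and 410.1 RPKM in controls. The remaining 5 transcripts, mt-Co2 among them, had a mean of 1.06 RPKM or less, so that the table does not cover this genome evenly. By symbol, 6 mitochondrially encoded genes were tested and 0 were called by limma, and 0 had an unadjusted p under 0.05. The symbols COX2 and COX3 reached the minimum of 1 RPKM only through KD library 1, at 7.79 and 7.07 RPKM. Their control means were 0.923 and 0.576 RPKM, so that their place among the tested genes rests on a single library.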

How the data were processed

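Total RNA of 6 libraries (3 *Ctcflos* KD, 3 nontargeting control) was analysed, grouped by the sample labels. The authors deposited RPKM values in a single table, 168326 lines for RefSeq, Ensembl and GenBank accessions with decimal commas. The paper states alignment by STAR to GRCm38 for the splice analysis of these libraries, and the software behind the table is not given in the sources used here. After removal of 305 exact repeat lines, RPKM was averaged per symbol. Count tests were not used, because the table holds no counts.

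Abundance was tested with limma-trend on log2(RPKM + 1) of genes whose mean RPKM reached 1, usage with limma diffSplice on log2(RPKM + 0.1) of such accessions (Simes p-values per gene), and ratios with exact two-sided permutation tests. Benjamini-Hochberg adjustment ran over all genes tested. The abundance and usage tests were checked on simulated data with noise that was independent between genes and libraries. That check does not cover deviations shared by many genes of a library. The members and lists were chosen with earlier results of these data known. From the lists, called genes without overlap were named, at most 5 a list by adjusted p, besides *Ctcflos* and *Ppargc1a*, *Polrmt*, *Twnk*, *Fis1*, *Mff*, *Oma1*, *Yme1l1*, *Bnip3* and *Usp30*. Another gene of this rule is not reported here. Other genes named were added as background or after their values were seen.

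Alternatives were another pseudocount, no filter, scaling by the median of ratios, a replicate block, an adjusted p of 0.01, curated RefSeq mRNAs alone, summed RPKM, limma without a trend, an F test, accessions with at least 5% of the gene, and each library left out. Positions are from Gencode vM21 (GRCm38), promoters from RefSeq (GRCm38.p6). The tests ran in R 4.3.3 with limma 3.58.1 (files read by data.table, version 1.17.8). Positions, promoters and plots were made in Python 3.11.15 with numpy 2.4.6, pandas 2.3.3 and matplotlib 3.10.9.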

Additional observations from a re-analysis of the deposited data

How the results depend on the processing

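Of 14 alternatives, 14 kept the call and direction of *Gabpa*, 6 those of *Tfam* and 5 those of *Polg*. The genes called for abundance numbered 2803 as reported, 1807 without a filter on low values, 523 at an adjusted p under 0.01 and 369 to 4810 with each library left out, and the members called were 3, 1, 1 and 1 to 3. Usage was called in 76 genes as reported, 479 without a filter, 45 at an adjusted p under 0.01, 23 among accessions with at least 5% of the gene and 35 to 202 with each library left out, and in 0 members, except for 1 without a filter. Signs turned where single libraries were left out: the log2 fold change was -0.054 to 0.015 for *Tfb2m* (above 0 without KD library 2), -0.020 to 0.14 for *Mfn1* (below 0 without control library 2) and -0.031 to 0.085 for *Mfn2* (-0.031 without KD library 1, -0.027 without control library 2). The log2 ratio of *Mfn1* to *Mfn2* differed by 0.064 as reported, by -0.0076 on RefSeq mRNAs alone and by -0.00042 to 0.12 with each library left out. The cause of these shifts was not tested. A *Ctcflos* level of under 1 RPKM, 3 libraries a group and accessions that share reads limit the precision.

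No source says whether the replicate numbers pair the libraries. Deviations from the group mean correlated across genes with r = 0.287, -0.288 and -0.418 for equal numbers 1, 2 and 3. Deviations within a group of 3 libraries are tied to each other, so that these values cannot settle whether the numbers record a pairing. Among unequal numbers, r was 0.504 for KD library 2 with control library 3 and 0.419 for KD library 3 with control library 2. The other unequal pairs lay between -0.238 and 0.0315. Whether the libraries are matched in this other order was not tested, and no fit used it as a block. Of 6 libraries, 2 correlated best with the library of their own number. With the number as a block, 1671 genes were called, 1647 of them among those reported, and 1 member, *Gabpa*, was called. *Tfam* then had an adjusted p of 0.081 and *Polg* of 0.080 from limma, and 10 of the 22 called list genes remained called. Usage was called in 55 genes and 0 members under the block, and exact sign-flip permutation over the numbers gave p = 0.75 for the ratio of *Mfn1* to *Mfn2* and p = 1 for that of *Opa1* to *Dnm1l*.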
